A study of Mus musculus with 8 samples.

Results

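The flavin monooxygenase and cytochrome P450 genes described here were Fmo1, Fmo2, Fmo4, Fmo5, Cyp1b1, Cyp7b1, Cyp4a10 and the amine oxidase gene Aoc1, 8 of the 32108 genes in the deposited expression table. They were taken as the rows whose Ensembl gene identifier maps to those symbols, and they had been proposed with their values in these libraries known, so their levels are given as a description without a test. The cells were mouse embryonic fibroblasts of the 4F2A strain, in which doxycycline switches on a polycistronic reprogramming cassette (Oct4, Sox2, Klf4, c-Myc) at the Col1a1 locus. All groups shared the homozygous 4F2A genotype, male embryos of 13.5 dpc as source, 2 µg/mL doxycycline from day 0 and a serum replacement medium with 1000 U/mL LIF. The groups D2, D4, D6 and D8 differed in the day of harvest and held 2 libraries each, and every title carries the abbreviation Ctr. Cells harvested on day 0 or kept without doxycycline were not analysed here, so each comparison is between days of induction. Whether the libraries of a group stem from separate cultures or embryos is not stated in the labels, and p-values then reflect only how far these samples spread, which can be technical.

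Flavin monooxygenases and microsomal P450 enzymes are membrane proteins of the endoplasmic reticulum that insert 1 oxygen atom into drugs, sterols, fatty acids and other small molecules. The first group binds FAD and oxidizes soft nucleophiles such as amines and sulfides, while the second holds a haem and takes electrons from the reductase encoded by Por. Both are best known from liver, but Cyp1b1 is typical of mesenchymal cells, and Fmo1 and Fmo2 are also found in kidney, lung and adipose tissue of mice. Aoc1 belongs to neither family: it encodes diamine oxidase, a secreted copper enzyme that degrades histamine and putrescine.

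The libraries held 19409936 to 20161021 counted reads and 20784 to 22080 genes above 0. Values are CPM, reads scaled to a library total of 1000000. A floor of 3 reads (0.149 to 0.155 CPM), which bounds what a 0 can hide, covers counting error only. All 16 fibroblast markers passed the filter for testing (at least 1 CPM in at least 2 libraries), with summed levels of 33149 and 33298 CPM in D2, 50161 to 53970 in D4, 38265 to 41994 in D6 and 37189 to 40958 in D8. The libraries did not match the labelled male sex. Xist, transcribed from the inactive X chromosome, lay between 702 and 1238 CPM, and the Y-linked genes Uty, Ddx3y, Eif2s3y and Kdm5d summed to 0.221 to 0.539 CPM in every library. The factor genes Pou5f1, Sox2, Klf4 and Myc stood at no less than 107 CPM in any library, without separation of the cassette from the cells' own copies.

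Of the 8 genes, 7 passed the filter, and Fmo4 did not. In 7 of the 8 genes both D8 libraries lay above both D2 libraries, and in 1, Cyp1b1, both lay below. Over all 15358 tested genes the first order held for 56.4% and the second for 29.3%. Between neighbouring days, 6 of the 8 were higher without overlap and 1 lower in D4 against D2 (51% and 30.3% of all tested genes), 6 higher and 1 lower in D6 against D4 (44.4% and 24.6%), and 7 higher and 0 lower in D8 against D6 (28.2% and 27.5%). Fmo4, not itself a tested gene, counts as higher in D4 against D2 only through library depth. Replicate 2 of either day held 1 read of it. Nothing is read from these counts, since the genes were chosen on these values. The genes followed different courses: Fmo1 and Fmo2 were higher on each later day, Cyp7b1 was highest in D4, Cyp4a10 and Aoc1 were near 0 until D4 and highest in D8, and Cyp1b1 was lowest in D4. In bulk RNA a change in the share of cells that express a gene and a change in RNA per cell cannot be told apart.

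**Figure D1:**
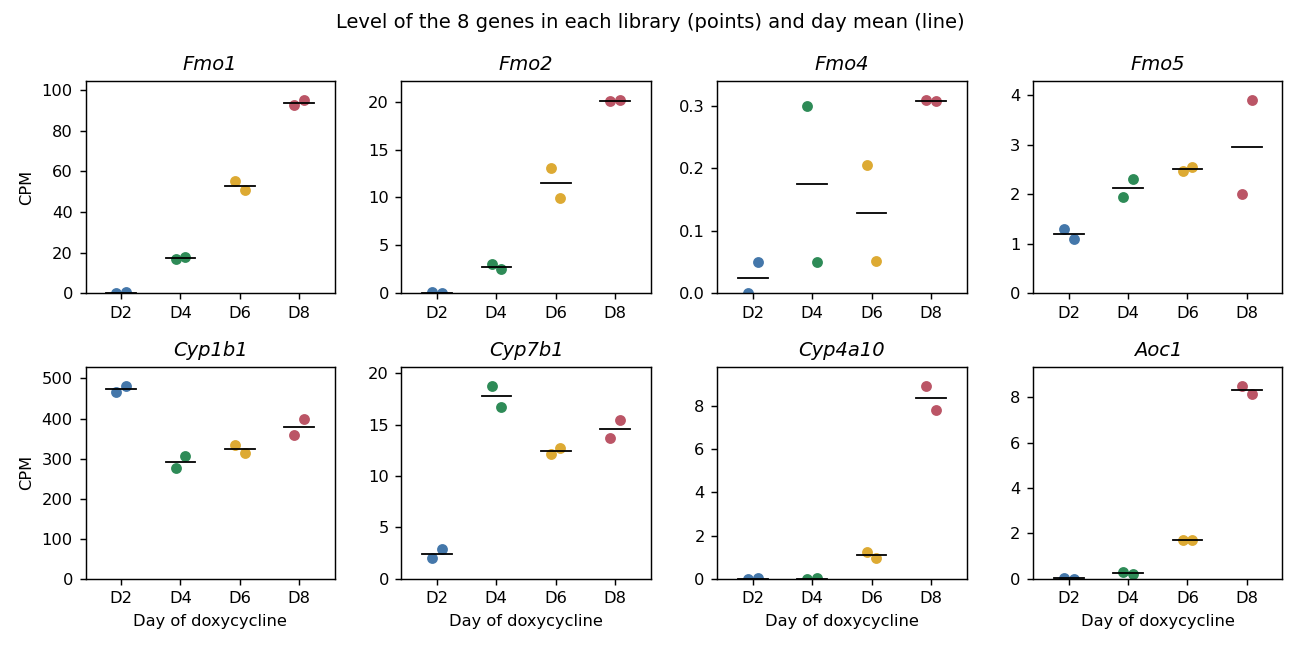
Level of each of the 8 genes in CPM (vertical axis, a separate linear scale from 0 for each gene) against the day of doxycycline (horizontal axis). Points are the 2 libraries of a day and the short line is their mean. Fmo1 reached 92.7 and 95.0 CPM in D8 from under 0.4 CPM in D2, and Cyp1b1 ranged from 275 to 481 CPM.

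Fmo1 (chr1:162829561-162866610, minus strand, mm10) encodes the flavin monooxygenase form that is prominent in mouse kidney. Its level was 0.118 and 0.366 CPM in the D2 libraries, 17.0 and 17.6 in D4, 55.3 and 50.6 in D6, and 92.7 and 95.0 in D8. Each day lay above the one before with no overlap, and within D4, D6 and D8 the 2 libraries differed little beside the steps between days. Mean levels were 0.242 ± 0.176, 17.3 ± 0.435, 53.0 ± 3.37 and 93.8 ± 1.60 CPM (SD, n = 2 per day). The D2 libraries held only about 10 reads of Fmo1 in all against about 3652 in D8, and the depth-scaled ratio was 378 (95% counting interval 205 to 788). The D2 libraries themselves lay apart, and the D8 mean was 256 times the level of D2 replicate 2 and 798 times that of D2 replicate 1. The later steps were smaller, 3.06 times from D4 to D6 and 1.77 times from D6 to D8. Of the 50-base words in its transcripts, 7.02% also occur in other genes, mostly in the gene model Gm48161, and its read numbers were not whole in any library, so a part of its level may be shared reads.

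Fmo2 (chr1:162874317-162898726, minus strand), the major lung form of most mammals, lies beside Fmo1. It stood at 0.0992 and 0 CPM in D2, 2.996 and 2.56 in D4, 13.1 and 9.98 in D6, and 20.0 and 20.1 in D8. The order of the days was that of Fmo1, again with no overlap between neighbouring days, and the D6 libraries were the pair furthest apart. D2 held 2 reads and D8 782, a depth-scaled ratio of 404 (95% counting interval 112 to 3344), and both D2 reads were in replicate 1, whose level the D8 mean exceeded 203 times. From D4 to D6 the mean level was 4.15 times as high, and from D6 to D8 it was 1.74 times as high. None of the 50-base words of Fmo2 occurs in another annotated gene.

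The proportion of the 2 genes differed between D4 and the later days. Divided by the length of all annotated exons, Fmo1 was 5.05 and 6.13 times as high as Fmo2 in the D4 libraries and 3.77 to 4.51 times as high in those of D6 and D8. On the log2(CPM + 1) scale their Pearson correlation over the 8 libraries was 0.976, a value that rests on 4 days with shared libraries and is given as a description.

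Fmo4 (chr1:162793188-162813972, minus strand) is a form with few known substrates. It was counted with 0 and 1 reads in D2, 6 and 1 in D4, 4 and 1 in D6, and 6 and 6 in D8, at most 0.309 CPM. In 4 of the 8 libraries it was under the floor. D2 held 1 read in all and D8 12, and a difference between days was not tested.

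Fmo5 (chr3:97628804-97655282, plus strand) encodes a form that in mammals mainly inserts oxygen into ketones, and it is the member of this family outside chromosome 1. Its level was 1.29 and 1.10 CPM in D2, 1.95 and 2.31 in D4, 2.46 and 2.56 in D6, and 2.01 and 3.90 in D8. D2 was lowest, and of the D8 libraries replicate 1 lay below both D6 libraries and replicate 2 above them, so the last step was within the spread of D8. The mean in D8 was 2.48 times that in D2.

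Fmo4, Fmo1, Fmo2 and Fmo6 lie in this order over 144 kb of chromosome 1, all on the minus strand. Fmo6 (chr1:162916551-162937515), annotated as protein coding in mouse, is no member of the 8 and could be tested. It stood at 0.0496 and 0 CPM in D2, 0.399 and 0.552 in D4, 2.38 and 1.61 in D6, and 4.33 and 4.00 in D8. Fmo6 rose in each step and was 2.33 ± 0.14 higher in D8 than in D2 on the log2(CPM + 1) scale (limma, adjusted p = 6.85e-09). It passed the filter only through D6 and D8, so these days could only be called higher than D2 and D4. The first step was 0.52 (adjusted p = 0.00565, limma) and was not called after quantile normalization, and the last was 0.80 (adjusted p = 0.00551, limma) and was not called with a pseudocount of 0.1, without the filter on low values or without D8 replicate 1. Fmo9 was at 0 in all 8 libraries.

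Summed over these 6 FMO genes (Fmo1, Fmo2, Fmo4, Fmo5, Fmo6 and Fmo9), the level was 1.56 and 1.51 CPM in D2 and 119 and 123 CPM in D8. Fmo1 made 75.1% to 78.1% of these counted reads, which are not divided by gene length, in the 6 libraries from D4 to D8. In D2 it made 7.55% and 24.2% of them.

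Bases before a RefSeq start of Fmo2 and Fmo6 are shown because these neighbouring genes had the same order of days. The Fmo6 window lies within the annotated span of that gene and not upstream of it. Both are 250 bases before a RefSeq transcript start (GRCm38.p6, minus strand), and they lie at chr1:162898759-162899008 and chr1:162937226-162937475. Fmo2 has a further RefSeq start, and the RefSeq table gave a promoter for 5 of the 8 genes.
Fmo2: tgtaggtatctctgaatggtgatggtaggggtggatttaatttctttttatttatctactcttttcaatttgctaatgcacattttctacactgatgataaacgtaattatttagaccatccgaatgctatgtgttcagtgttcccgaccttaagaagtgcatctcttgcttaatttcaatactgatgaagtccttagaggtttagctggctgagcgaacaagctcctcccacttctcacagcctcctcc
Fmo6: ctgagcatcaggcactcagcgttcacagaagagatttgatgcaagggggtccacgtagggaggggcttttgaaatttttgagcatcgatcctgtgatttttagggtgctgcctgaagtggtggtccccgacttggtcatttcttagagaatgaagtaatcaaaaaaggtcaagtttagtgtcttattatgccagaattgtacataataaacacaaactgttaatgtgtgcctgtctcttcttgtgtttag
Each window was searched on both strands for GCGTG, the core bound by the aryl hydrocarbon receptor, TGACTCA (AP-1), CACGTG (MYC), ATGCAAAT (octamer), AGGTCANAGGTCA (a nuclear receptor direct repeat) and TATAAA. None of these letters occurs in either window, which therefore carry no capitals. Among 32851 promoter windows of the same length, GCGTG occurs in 28.2%, TGACTCA in 4.46%, CACGTG in 6.02%, ATGCAAAT in 1.6%, AGGTCANAGGTCA in 0.0335% and TATAAA in 12.4%.

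Genes beside the cluster took several courses. This window of 8 other protein-coding genes was chosen after the FMO values were known. Upstream of Fmo4 in map order, Prrc2c was not called in D8 against D2 (381 ± 1.99 and 400.3 ± 41.9 CPM, limma adjusted p = 0.421), and on the other side of the cluster, Prrx1, a mesenchymal homeobox gene, was not called either (556 ± 30.4 and 554 ± 24.7 CPM, adjusted p = 0.955). Both depended on the scaling: Prrc2c was called higher after quantile normalization (0.25), and Prrx1 was called lower after median-of-ratios scaling (-0.19) and higher after quantile normalization (0.12). Mroh9, the neighbour beside the cluster on that side, was at most 0.102 CPM and was not tested. Vamp4, which encodes a vesicle fusion protein, rose from 31.0 ± 0.0551 CPM in D2 to 58.1 ± 1.72 in D8 (limma adjusted p = 2.1e-08), and Gorab, which encodes a Golgi protein, fell from 45.4 ± 3.26 to 36.1 ± 1.22 CPM (limma adjusted p = 0.000584). Mettl13 was called higher (0.34 on the log2(CPM + 1) scale, limma adjusted p = 0.000888), a call that both median-of-ratios scaling and quantile normalization ended. Further away, Myoc, the gene of the secreted glycoprotein myocilin, rose from 1.21 ± 0.0141 CPM in D2, to 42.9 ± 2.34 in D4, 257 ± 5.17 in D6 and 359.5 ± 2.45 in D8. Its change from D2 to D8 was 7.35 on the log2(CPM + 1) scale (limma adjusted p = 4.06e-17). Myoc overlaps Myocos on the other strand, which stood at 27.1 ± 1.36 CPM in D8, and since the use of strand in the counting is not given in the sources used here, reads in the overlap cannot be told apart.

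**Figure D2:**
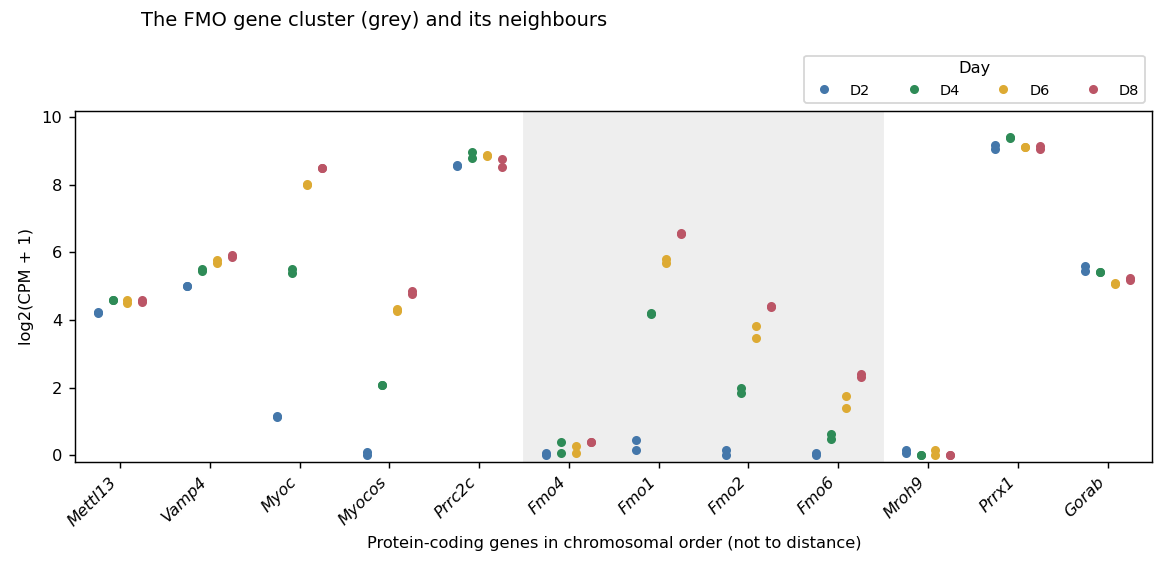
Level of 12 protein-coding genes in and around the FMO cluster as log2(CPM + 1) (vertical axis), with genes in chromosomal order and not to distance (horizontal axis). Each point is a library, coloured by day, and the grey area holds the 4 FMO genes. Fmo1, Fmo2 and Fmo6 step up by day, Fmo4 stays near 0, and of the neighbours Myoc and Myocos show the steepest steps.

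Cyp1b1 (chr17:79701537-79715061, minus strand) encodes a P450 of mesenchymal and steroid-responsive tissues that hydroxylates oestradiol and activates polycyclic hydrocarbons. It had the highest level per kilobase of exon among the 8 genes on each day, and its level was 466 and 481 CPM in D2, 275 and 306 in D4, 335 and 315 in D6, and 359.6 and 399 in D8. D2 lay above all later libraries, D4 below all others, and D6 and D8 between, with no overlap between neighbouring days. The D4 mean was 0.614 times and the D8 mean 0.801 times the D2 mean. No 50-base word of Cyp1b1 occurs in another annotated gene.

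Transcription of Cyp1b1 is classically driven by the aryl hydrocarbon receptor with its partner Arnt. The 250 bases before its RefSeq start (GRCm38.p6, chr17:79715062-79715311, minus strand) are shown for that reason, with the single occurrence of the receptor core in capitals.
Cyp1b1: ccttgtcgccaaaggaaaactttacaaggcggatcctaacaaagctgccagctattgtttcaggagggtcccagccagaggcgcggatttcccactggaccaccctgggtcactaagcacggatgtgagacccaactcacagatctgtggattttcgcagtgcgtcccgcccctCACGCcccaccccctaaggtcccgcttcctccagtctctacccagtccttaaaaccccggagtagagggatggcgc
The capitals read CACGC, the core GCGTG on the other strand, and begin 76 bases before the start. No other searched motif occurs in the window. The match is a description of the letters, and binding was not measured.

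The genes listed for the aryl hydrocarbon receptor pathway moved in both directions. Of 13 tested genes outside the 8, 7 rose and 4 fell in D4 against D2, where 62.5% of all tested genes were called (40.9% higher and 21.7% lower). Their median change was 0.23 on the log2(CPM + 1) scale, against 0.11 for all tested genes, and after median-of-ratios scaling 6 were higher and 6 lower. From D4 to D6, 8 rose and 1 fell, against 37.7% called over all genes (25.2% higher and 12.6% lower). From D6 to D8 only Xdh was called, higher, against 9.11% over all genes (4.72% higher and 4.39% lower), and leaving out either D8 library, D6 replicate 1 or the filter ended that call. Over the whole course, D8 against D2, 6 rose and 3 fell, where 70.4% of all genes were called (47.3% higher and 23.1% lower). That split was 5 and 5 after median-of-ratios scaling.

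The receptor's own feedback genes fell in the first step, in which Cyp1b1 was lower as well. Tiparp, an ADP-ribosyltransferase that represses the receptor, stood at 160.0 and 153 CPM in D2, 40.4 and 36.5 in D4, 58.7 and 55.0 in D6, and 56.2 and 58.7 in D8. It fell by 2.00 ± 0.06 on the log2(CPM + 1) scale from D2 to D4 (limma adjusted p = 2.4e-11) and rose by 0.55 ± 0.06 from D4 to D6 (adjusted p = 2.2e-05, limma). Ahrr, the receptor's repressor, fell by 1.85 ± 0.12 from D2 to D4 (limma adjusted p = 3.38e-08), and its level was 15.0 and 16.3 CPM in D2 and 2.12 and 2.02 CPM in D8. Tiparp thus had its lowest level in D4, as Cyp1b1 did, while Ahrr had its lowest in D8. Cyp1a1, the most used target gene of the receptor, was counted with 12 and 11.5 reads in D2 and at most 1 read in any later library, and was not tested.

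Several other enzymes of the same list rose. Aldh3a1, an aldehyde dehydrogenase of the cornea and of tumours, stood at 160.5 and 159 CPM in D2, 636 and 565 in D4, 1552 and 1469 in D6, and 1714 and 1635 in D8. Its change from D2 to D8 was 3.38 ± 0.06 on the log2(CPM + 1) scale (limma adjusted p = 9.16e-14), and no neighbouring days overlapped. Xdh, xanthine dehydrogenase, rose from 3.30 ± 0.0336 to 29.3 ± 0.450 CPM between the same days, and the quinone reductase gene Nqo1 rose from 32.4 ± 0.727 to 72.6 ± 8.87 CPM. The glucuronosyltransferase genes Ugt1a6a and Ugt1a6b rose together, but 52.1% and 79.8% of their 50-base words occur in other genes, so their values are not separate measurements. Ahr itself rose by 0.43 ± 0.07 from D2 to D4 (limma adjusted p = 8.11e-05) and fell by 0.58 ± 0.07 from D4 to D6 (adjusted p = 2.4e-05, limma), steps in which Cyp1b1 was lower and then higher. In D8 both genes were below their D2 level, Ahr with a change of -0.21 on the log2(CPM + 1) scale (limma adjusted p = 0.0114).

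**Figure D3:**
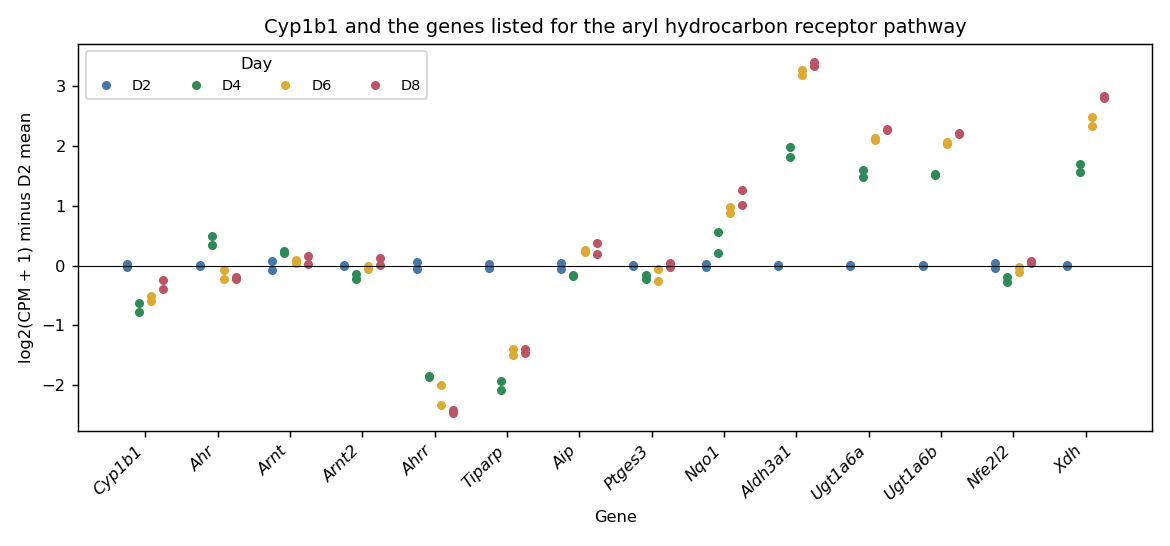
Change of Cyp1b1 and the tested genes listed for the aryl hydrocarbon receptor pathway, as log2(CPM + 1) of each library minus the D2 mean of that gene (vertical axis), by gene (horizontal axis). Points are libraries, coloured by day. Cyp1b1, Ahrr and Tiparp lie below 0 in all later libraries, while Aldh3a1, Xdh, Nqo1 and the Ugt1a6 genes lie above.

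Cyp7b1 (chr3:18071950-18243338, minus strand) encodes the hydroxylase that inactivates side-chain oxysterols and several neurosteroids, a step of the alternative route to bile acids. Its level was 1.98 and 2.94 CPM in D2, 18.8 and 16.7 in D4, 12.1 and 12.7 in D6, and 13.7 and 15.4 in D8. D4 was the highest day and D2 the lowest, and no neighbouring days overlapped. The mean in D4 was 7.22 times that in D2, the mean in D6 0.699 times that in D4, and the mean in D8 1.17 times that in D6. No 50-base word of Cyp7b1 occurs in another annotated gene, and 1 gene model overlaps its span on the same strand.

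Of 12 tested genes of oxysterol and bile acid synthesis outside the 8, 8 rose and 1 fell in D4 against D2, where 40.9% of all tested genes rose and 21.7% fell, with a median change of 0.33 against 0.11 for all tested genes. After quantile normalization 5 were higher and 2 lower. Ch25h, which makes a substrate of the Cyp7b1 enzyme by hydroxylating cholesterol, rose by 1.40 ± 0.10 on the log2(CPM + 1) scale (limma adjusted p = 5.03e-08). It stood at 5.78 and 5.73 CPM in D2, 17.2 and 16.4 in D4, 15.5 and 13.4 in D6, and 14.5 and 12.8 in D8. As with Cyp7b1, D4 was the highest day and the D2 libraries lay apart from the rest. Cyp46a1, which makes the oxysterol of the brain, rose by 1.25 ± 0.15 in the same step (limma adjusted p = 8.88e-06), from 0.621 ± 0.174 to 2.85 ± 0.346 CPM. Both D2 libraries were under 1 CPM for Cyp46a1, so it passed the filter through later days only.

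From D4 to D6, 2 genes of this list rose and 1 fell (25.2% and 12.6% of all tested genes), but 2 rose and 5 fell after quantile normalization. Abcg1, a sterol exporter, was the single gene called from D6 to D8, and that call was lost without D6 replicate 1, without either D8 library and without the filter. Over the whole course 7 rose and 1 fell, where 47.3% of all tested genes rose and 23.1% fell. The cholesterol exporter gene Abca1 rose from 172 ± 12.3 CPM (D2) to 388 ± 44.1 CPM (D8) (limma adjusted p = 6.26e-09), and Abcg1 fell from 3.06 ± 0.464 to 0.488 ± 0.111 CPM (adjusted p = 1.99e-06, limma), although both are known targets of the oxysterol receptors. Cyp7a1 and Cyp8b1, enzymes of the classic bile acid route in liver, were at 0 in all 8 libraries, and Gpr183, the chemotactic receptor for an oxysterol that the Cyp7b1 enzyme produces, reached at most 0.249 CPM.

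Cyp4a10 (chr4:115518264-115533649, plus strand) encodes a fatty acid omega-hydroxylase and is a classic target of PPAR alpha in mouse liver. It stood at 0 and 0.0249 CPM in D2, 0 and 0.0165 in D4, 1.22 and 0.963 in D6, and 8.92 and 7.82 in D8. The D2 and D4 libraries together held less than 1 read, D6 about 43 reads and D8 about 326, so no ratio is given against D2 or D4. From D6 to D8 the depth-scaled ratio was 7.61 (95% counting interval 5.52 to 10.7). Of its 50-base words, 29.8% occur in Cyp4a32 or Cyp4a31, and its reads were fractions in each of the 6 libraries where it was above 0, so reads of these genes were not fully separated and its level is uncertain.

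The near-identical neighbours were also highest in D8. Cyp4a32 stood at 0 and 0.0249 CPM in D2 but at 1.68 and 1.49 in D8, and it rose by 1.04 ± 0.12 on the log2(CPM + 1) scale from D6 to D8 (limma adjusted p = 0.000442). Cyp4a31 was at 0 in both D2 libraries and at 1.04 and 1.08 CPM in D8 (0.96 ± 0.12 from D6 to D8, limma adjusted p = 0.000822). In D6, where Cyp4a10 held about 43 reads, they held 10.16 and 2.16 reads, and neither was called from D4 to D6 (limma adjusted p = 0.0671 for Cyp4a32 and 0.789 for Cyp4a31). Their values are not independent of those of Cyp4a10, since 43.8% and 20.6% of their 50-base words are shared. Each passed the filter only through D8, so it could only be called higher there. Cyp4a14, a related gene that shares the liver response in mouse, had at most 5 reads in a library.

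Of 19 tested genes listed for PPAR receptors and fatty acid oxidation outside the 8, 11 rose and 2 fell from D2 to D4, days on which Cyp4a10 was under the floor. Over all tested genes 62.5% were called in that step (40.9% higher and 21.7% lower). Of the 19 genes 68.4% were called, 57.9% higher and 10.5% lower. After quantile normalization 8 were higher and 3 lower in that step. From D4 to D6, 4 rose and 2 fell (25.2% and 12.6% of all tested genes), and from D6 to D8 only Cyp4a31 was called, higher (9.11% of all tested genes in either direction). Cyp4a31 passed the filter only through D8. In D8 against D2, 15 rose and 3 fell, where 47.3% of all tested genes rose and 23.1% fell, with a median change of 0.62 on the log2(CPM + 1) scale against 0.17 for all tested genes, and 10 rose and 3 fell after quantile normalization.

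Angptl4, an inhibitor of lipoprotein lipase, rose from 49.2 ± 2.25 CPM in D2 to 182 ± 5.07 in D4 (1.87 ± 0.05 on the log2 scale, limma adjusted p = 6.61e-12). Cpt1a, the entry enzyme of mitochondrial fatty acid oxidation, rose from 129 ± 0.233 to 303 ± 14.6 CPM in the same step. Plin2, which coats lipid droplets, fell from 266 ± 4.04 to 134 ± 6.89 CPM and the thioesterase gene Acot2 fell from 26.7 ± 1.49 to 15.9 ± 0.867 CPM, although both are known targets of the same receptors. Ppara, the receptor gene itself, reached at most 0.25 CPM and was not tested, Pparg stood at 1.10 to 1.91 CPM with no call, and Ppard was the most abundant at 47.0 to 66.0 CPM. Ppard was called lower in D8 against D2 (64.0 ± 2.80 CPM in D2 and 49.9 ± 4.14 in D8, limma adjusted p = 0.000293).

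**Figure D4:**
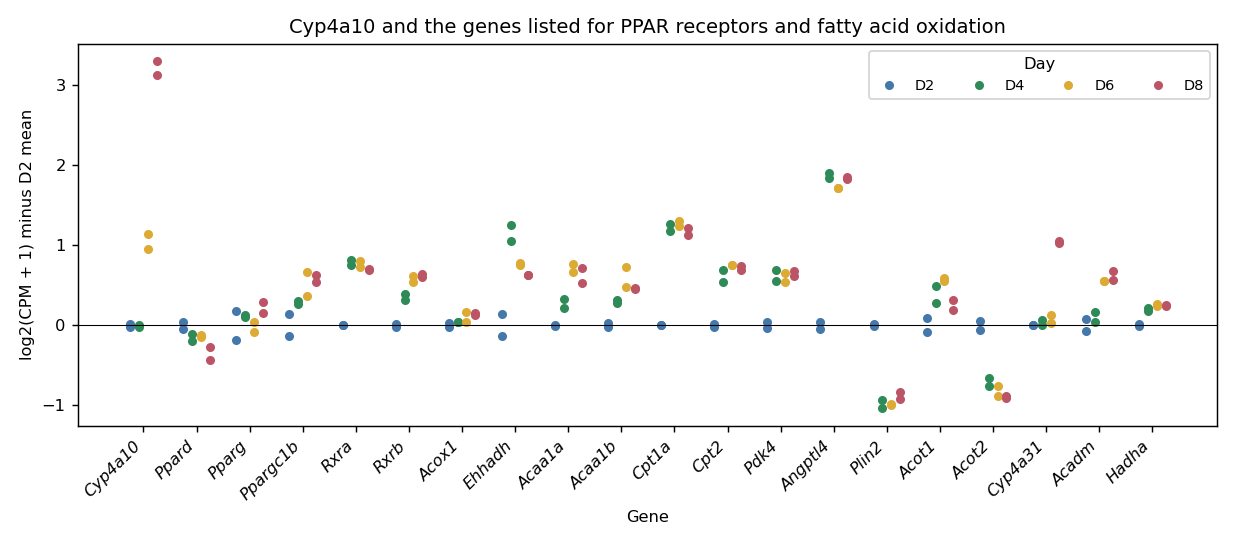
Change of Cyp4a10 and the tested genes listed for PPAR receptors and fatty acid oxidation, as log2(CPM + 1) of each library minus the D2 mean of that gene (vertical axis), by gene (horizontal axis). Points are libraries, coloured by day. Angptl4 and Cpt1a are above 0 from D4 onward, while Cyp4a10 and Cyp4a31 have their highest points in D8.

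Aoc1 (chr6:48872896-48909188, plus strand), the diamine oxidase gene, stood at 0.0496 and 0 CPM in D2, 0.300 and 0.201 in D4, 1.69 and 1.69 in D6, and 8.50 and 8.15 in D8. Each day was above the one before with no overlap. It was counted with 1 read in D2, in replicate 1, and 324 in D8, a depth-scaled ratio of 335 (95% counting interval 59.7 to 13272), or 168 against replicate 1 alone. From D4 (10 reads) to D6 (66 reads) the ratio was 6.75 (interval 3.45 to 14.7), and from D6 to D8 the mean was 4.93 times as high. Its 50-base words are almost free of copies, with 0.0924% in Svs1.

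Aoc1 has RefSeq starts that lie apart, and the window before the downstream one (GRCm38.p6, chr6:48904736-48904985, plus strand) is shown because it holds the only AP-1 site, TGACTCA in capitals, found in the windows available for the 8 genes.
Aoc1: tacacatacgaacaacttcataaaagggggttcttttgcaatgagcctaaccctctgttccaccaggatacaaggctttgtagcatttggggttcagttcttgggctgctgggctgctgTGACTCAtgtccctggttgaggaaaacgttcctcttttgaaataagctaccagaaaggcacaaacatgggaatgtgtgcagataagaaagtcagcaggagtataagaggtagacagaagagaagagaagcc
The site begins 131 bases before that start. The window before the upstream start holds none of the 6 searched motifs. Both windows lie within the annotated span of Aoc1.

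Among amine oxidases and the enzymes of histamine and polyamines, most tested genes fell between D2 and D8, while Aoc1 was higher in D8. Of 22 tested genes outside the 8, 5 rose and 13 fell in D4 against D2, where 40.9% of all tested genes rose and 21.7% fell, with a median change of -0.28 against 0.11 for all tested genes. From D4 to D6, 6 rose and 7 fell (25.2% and 12.6% of all tested genes). From D6 to D8 Loxl4 and Srm fell, where 4.39% of all tested genes fell, calls that were both lost without either D2 library, without D6 replicate 2, without D8 replicate 1 and without the filter, and for Srm also without D6 replicate 1 or D8 replicate 2. In D8 against D2, 5 rose and 13 fell (3 and 12 after quantile normalization), where 47.3% of all tested genes rose and 23.1% fell, with a median of -0.30 against 0.17. Aoc3, a copper amine oxidase of vascular smooth muscle and adipocytes, rose from 1.59 ± 0.810 CPM (D2) to 8.53 ± 0.424 CPM (D8) (1.92 ± 0.18 on the log2(CPM + 1) scale, limma adjusted p = 4.92e-07).

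The lysyl oxidases, copper enzymes that crosslink collagen, went the other way. Loxl4 stood at 226 and 217 CPM in D2, 46.3 and 42.9 in D4, 29.6 and 35.2 in D6, and 23.3 and 27.4 in D8. It fell by 3.08 ± 0.09 on the log2(CPM + 1) scale from D2 to D8 (limma adjusted p = 4.05e-12), and Lox, Loxl1, Loxl2 and Loxl3 were also called lower between these days, though Lox showed no change after quantile normalization. Odc1, which makes putrescine, a substrate of diamine oxidase, fell from 109.5 ± 2.25 to 53.4 ± 0.964 CPM, and Sat1, which acetylates polyamines for export, fell from 139 ± 3.16 to 67.9 ± 5.18 CPM. Hdc, which makes histamine, stood at 0 and 0.0498 CPM in D2 and at 0.721 and 1.13 CPM in D8, its highest value, and was not tested.

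Among the tested P450 genes outside the 8, most called changes were upward. By symbol (Cyp, digits, letters, digits) 94 P450 genes were in the table, 91 of them outside the 8. This pattern leaves out P450 genes with symbols of another form, such as Tbxas1. Of the 91 genes, 24 passed the filter. In D4 against D2, 13 rose and only Cyp20a1 fell (40.9% and 21.7% of all tested genes), and in the next steps 11 and then 7 rose (25.2% and 4.72% of all tested genes) with 0 called lower by limma (0 also at an unadjusted p under 0.05 in both steps, and 3 called lower in D6 against D4 after quantile normalization). In D8 against D2, 18 of 24 rose and Cyp20a1 fell, where 47.3% of all tested genes rose, and the median change was 1.23 on the log2(CPM + 1) scale against 0.17 over all genes. After quantile normalization 16 rose and 5 fell. The filter sets a part of this direction. Cyp4a31, Cyp4a32, Cyp4b1, Cyp2b23 and Cyp2ab1 passed it only through D8, so they could only be called higher there. All of these but Cyp4b1 are among the genes that rose from D6 to D8. Cyp2w1, Cyp2f2, Cyp2r1 and Cyp46a1 were under 1 CPM in both D2 libraries and passed through later days only. Their entry favours calls higher against D2. Cyp1a1 (23.5 reads in D2 and 1 in D8) and Cyp21a1 (34 and 4.25 reads) did not pass and could not be called lower.

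Cyp2s1, an epithelial P450, stood at 11.3 and 10.5 CPM in D2, 56.2 and 57.1 in D4, 99.8 and 104 in D6, and 146 and 113 in D8. It rose by 3.45 ± 0.09 from D2 to D8 (limma adjusted p = 2.46e-12), with D8 replicate 1 apart from its partner. Cyp4f39, a fatty acid omega-hydroxylase of skin, rose between D2 and D8 from 25.4 ± 1.35 to 126 ± 3.58 CPM, and Cyp26b1, which degrades retinoic acid, rose from 26.9 ± 1.45 to 85.1 ± 9.69 CPM. Cyp2f2, a P450 of mouse airway cells, was at 0 in both D2 libraries and at 4.95 and 5.54 CPM in D8 (204 reads). Cyp20a1, a P450 without an established substrate, fell from 58.0 ± 1.03 to 47.7 ± 3.39 CPM (-0.28 ± 0.07, limma adjusted p = 0.00393), a call that was lost without D8 replicate 1.

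**Figure D5:**
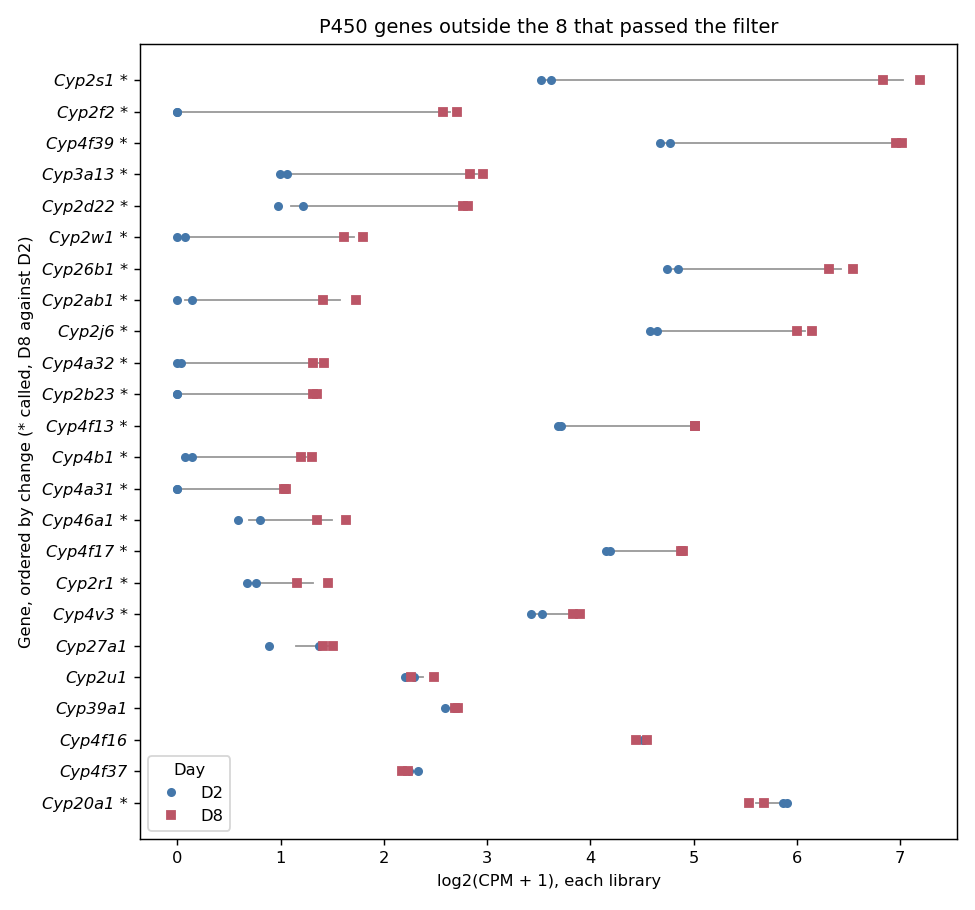
Level of the 24 tested P450 genes outside the 8 as log2(CPM + 1) (horizontal axis) in each D2 library (circles) and each D8 library (squares), with a line between the day means. Genes (vertical axis) are ordered by their change, and an asterisk marks those called in D8 against D2. Of the 24 genes, 19 carry an asterisk, and Cyp20a1 at the bottom is the one called lower.

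Among the P450 genes of this symbol pattern, the share of Cyp1b1 was lower on each later day than in D2. Cyp1b1 still had the highest level of these genes in D8, followed by Cyp2s1 (129 ± 23.2 CPM) and Cyp4f39 (126 ± 3.58 CPM). Summed over the 94 genes, the level was 695 and 712 CPM in D2, 671 and 692 in D4, 859 and 852 in D6, and 992 and 1019 in D8. Cyp1b1 made 67.0% and 67.6% of this sum in D2, 41.0% and 44.2% in D4, 39.0% and 37.0% in D6, and 36.2% and 39.2% in D8. Without Cyp1b1 the sum was 229.5 and 231 CPM in D2 and 633 and 619 CPM in D8. Because the values are not divided by gene length, these shares are of counted reads.

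Of 23 tested genes of electron transfer and haem supply, partners that P450 enzymes need, 9 rose and 5 fell in D8 against D2. Both shares were near those of all tested genes (47.3% higher and 23.1% lower), with a median change of 0.10 against 0.17 for all genes, and after median-of-ratios scaling the split was 7 higher and 10 lower. Por, the electron donor, was 79.9 ± 2.83 CPM (D2) and 85.9 ± 8.60 CPM (D8) and was not called (limma adjusted p = 0.18). Hmox1, which degrades haem, stood at 305 and 303 CPM in D2, 62.3 and 60.3 in D4, 93.0 and 90.1 in D6, and 91.6 and 87.1 in D8. It fell by 2.29 ± 0.05 in the first step (limma adjusted p = 1.66e-12) and rose by 0.57 ± 0.05 in the second (adjusted p = 2.34e-06, limma), so it was lowest in D4 as Cyp1b1 was. Cyb5a, which passes electrons to several P450 enzymes, rose from 34.3 ± 0.322 to 68.9 ± 0.807 CPM between D2 and D8.

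The nuclear receptors and liver factors that drive these families in hepatocytes were mostly near 0. Of 11 listed genes 4 passed the filter, and in D8 against D2 2 of these rose and 1 fell (47.3% and 23.1% of all tested genes). Nr1i2, the pregnane receptor, reached at most 0.0515 CPM, Hnf4a at most 0.513 CPM, and Foxa2 at most 0.0513 CPM. Esr1, the oestrogen receptor gene, rose from 2.61 ± 0.170 CPM in D2 to 11.6 ± 1.68 in D8 (limma adjusted p = 1.08e-08), and Nr3c1, the glucocorticoid receptor gene, rose from 71.0 ± 1.43 to 109.8 ± 0.743 CPM (adjusted p = 3.47e-07, limma). Nr1i3, the constitutive androstane receptor gene, stood at 6.77 to 8.81 CPM with no call. Cebpa, a factor of liver and fat cells, fell from 7.32 ± 0.671 to 5.19 ± 0.308 CPM (limma adjusted p = 0.00878), a call that was lost without D2 replicate 2 or D8 replicate 1.

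Compared per kilobase of exon, the order of the 8 genes changed with the day. Cyp1b1 was first on each day, at 81.1 ± 1.84 CPM per kb in D2 and 65.0 ± 4.83 in D8. In D8 it was followed by Fmo1 at 14.9 ± 0.255, Cyp7b1 at 6.73 ± 0.563, Cyp4a10 at 3.97 ± 0.370, Fmo2 at 3.58 ± 0.0131, Aoc1 at 2.56 ± 0.0761, Fmo5 at 0.520 ± 0.235 and Fmo4 at 0.0832 ± 0.000298 CPM per kb (SD, n = 2). Of the neighbours in this order, Cyp4a10 and Fmo2 differed by about the spread between the Cyp4a10 libraries. In D4 Cyp7b1 (8.20 ± 0.663 CPM per kb) stood above Fmo1 (2.75 ± 0.0690), and by D6 Fmo1 (8.40 ± 0.534) stood above Cyp7b1 (5.73 ± 0.176).

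Genes with the most similar course were found by Pearson correlation of log2(CPM + 1) over the 8 libraries among 11627 genes, as a description. For Fmo1 they were Lrrn3 (0.9998), Cd34 (0.9994), which marks progenitor and stromal cells, and Cd55 (0.999), a complement inhibitor. For Fmo2 they were Fxyd1 (0.9989), Arhgap42 (0.9989) and Akr1c14 (0.9988), the last a hydroxysteroid dehydrogenase. For Cyp7b1 they were Il1rl2 (0.9977), Wipf1 (0.9967) and the chemokine gene Cxcl1 (0.9964), all highest in D4. For Cyp1b1 they were Ncl (0.9835), which encodes nucleolin, Rock1 (0.9813) and Coa5 (0.9806), and for Fmo5 Zfp827 (0.9884), Rngtt (0.9689) and Clpx (0.9668). Among the 8 genes, Cyp4a10 and Aoc1 were each among the other's 3 most similar genes, at 0.991, and Zfp951 (0.9945) for Cyp4a10 and Nr1d2 (0.9905) for Aoc1 were close to these. Many genes follow the day in these libraries, so values near 1 are common.

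Markers of cell types that express these genes were examined beside them, and their part in the results was not tested. The summed level of 12 hepatocyte markers was 2.58 to 3.42 CPM in D2 and 4.35 to 5.54 CPM in D8, with Ttr, Fgb, Fga and Tat at 0 in all libraries and Alb at most 2.27 CPM. Of the 4 hepatocyte markers tested, Alb and Serpina1b rose and Apob fell in D8 against D2, with Alb at 0 in both D2 libraries and at 2.27 and 2.00 CPM in D8 (limma adjusted p = 4.98e-08). Being at 0 in D2, Alb passed the filter through later days only. The summed fibroblast markers were highest in D4, the day on which Cyp7b1 and Ch25h were highest. Of the 16 markers 12 rose and 3 fell from D2 to D4 (40.9% and 21.7% of all tested genes). From D4 to D6, 2 rose and 10 fell (25.2% and 12.6%). Epithelial markers, 10 genes, summed to 38.7 to 41.2 CPM in D2 and 172 to 181 CPM in D8. Most of the D8 sum was Krt8, at 2.17 to 2.64 CPM in D2 and 116 to 134 CPM in D8. Of the 6 epithelial markers tested, 5 rose and 1 fell in D8 against D2 (47.3% and 23.1% of all tested genes). Endothelial markers, 8 genes, summed to 72.0 to 73.2 CPM in D2 and 165 to 166 CPM in D8, almost all of it Tek (161 and 163 CPM in D8). Macrophage markers, 10 genes, summed to 69.6 to 96.5 CPM in D2 and 74.3 to 85.0 CPM in D8, and adipocyte markers, 8 genes, summed to 21.9 to 23.4 and 21.1 to 22.3 CPM. Pluripotency markers, 10 genes, summed to 0.856 to 0.998 CPM in D2 and 8.81 to 9.38 CPM in D8, with Nanog at most 0.569 CPM.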

How the data were processed

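RNA-seq was run on total RNA of 4F2A MEFs, with 8 libraries in 4 groups by day. The values deposited by the authors are CPM, each gene's reads scaled to a library total of 1000000. The name of the table speaks of TPM, but within each library every value is a multiple of 1 hundredth of what a single read is worth, a pattern lost on division by length. Whole reads made 53.2% to 54.8% of the non-zero values (tolerance 0.02 read). The submitters' processing notes name Trimmomatic 0.39, featureCounts and mm10. For the aligner, the annotation release, the use of strand and multi-mapping reads, nothing is stated (not given in the sources used here). All columns belonged to a labelled library (0 belonged to none). Symbols, spans and exon lengths came from GENCODE M21 (32063 identifiers matched, 45 did not), and promoter sequence from RefSeq (GRCm38.p6).

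The 15358 genes that reached 1 CPM in 2 or more libraries entered a limma fit (version 3.58.1, R 4.3.3) of log2(CPM + 1), with a coefficient per day over all 8 libraries, 4 residual degrees of freedom and eBayes with a trend. P-values are two-sided with Benjamini-Hochberg adjustment over these genes, and a call is an adjusted p under 0.05. The design had been written for TPM or CPM. Changes on the log2(CPM + 1) scale understate the fold of low genes, and other ratios are of mean CPM. Where the earlier day held few reads, the ratio of summed reads has an exact 95% counting interval, which covers counting error only. Python 3.11.15 with numpy 2.4.6, pandas 2.3.3, scipy 1.17.1 and matplotlib 3.10.9 was used elsewhere. The fit was tested on simulated data.

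The 8 genes and all lists were chosen with earlier results of these data known. The rule for naming took the 8 genes, up to 4 called genes per list and comparison with the largest change, FMO genes, genes a sentence on a pathway needs, and the 3 genes most correlated with each member among those with 5 CPM in some library. Not all are printed, 2 genes of the lists are left out and not reported here, and the neighbours of the FMO cluster, the sex-linked genes and the reprogramming factors were outside the rule and chosen after values were seen. Same-numbered libraries did not deviate together (correlations of -0.102 to 0.207), so the numbers were not taken as pairs. Alternatives were a pseudocount of 0.1, no filter, a filter of 5 CPM, median-of-ratios scaling, quantile normalization, a replicate block and leaving out each library.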

Additional observations from a re-analysis of the deposited data

How the results depend on the processing

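Results were recomputed under 6 alternatives and without each library in turn, where a lone library was assumed to vary like the other days. Of 182 called results of named genes, none changed direction where it could be fitted, and the number no longer past the threshold was 6 with a pseudocount of 0.1, 32 without a filter, 9 after median-of-ratios scaling, 16 after quantile normalization, 0 with a filter of 5 CPM (145 results) and 8 to 19 without a library (168 to 182 results). With the replicate number as a block, the genes called were 9753 in D4 against D2 (9606 without it), 6046 in D6 against D4 (5792), 1593 in D8 against D6 (1399) and 10929 in D8 against D2 (10807), and all 182 calls held. The numbers share no stated origin. Without a filter, 344 genes were called in D8 against D6, and of P450 genes outside the 8, 4 were lower in D4 against D2, 4 called (all higher) in D8 against D6, and 29 called with 3 lower in D8 against D2. With 5 CPM as the filter, 6 P450 genes were called in D6 against D4, 4 in D8 against D6 and 10 (9 higher) in D8 against D2. Quantile normalization gave 2, 3 and 5 lower P450 genes in D4 against D2, D6 against D4 and D8 against D2. The 2 filters change how many genes are tested, and for the other settings the cause was not tested. Without a library, the genes called ranged from 7922 to 9603 (D4 against D2), 3960 to 5717 (D6 against D4), 398 to 1743 (D8 against D6, lowest without D8 replicate 1) and 9433 to 10996 (D8 against D2). P450 genes called ranged from 12 to 14, 8 to 12, 2 to 9 and 13 to 20, and those lower in D8 against D2 from 0 to 1. The median change of all genes in D8 against D2 was 0.167 as deposited, -0.004 with median-of-ratios scaling and -0.054 with quantile normalization. Of called genes, 67.2%, 50.9% and 45.1% were higher in that comparison, 65.3%, 52.6% and 47.1% in D4 against D2, and 66.7%, 46.9% and 47.7% in D6 against D4. Among the 8 genes the sign of a step changed for Fmo5 (D6 against D4 after quantile normalization, -0.01, and D8 against D6 without D8 replicate 2, -0.22) and for Cyp4a10 (D4 against D2, both under the floor). Of members fitted, 6 were higher in D8 than in D2, 7 with no filter and 5 with 5 CPM. Depth limits Fmo4 and the D2 levels of Fmo1, Fmo2, Aoc1 and Cyp4a10, each at or under 3 reads in a library.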

Other observations

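Of 14 tested genes of retinoid metabolism, which include P450 enzymes of retinoic acid breakdown, 10 rose and 3 fell in D8 against D2, where 47.3% of all tested genes rose and 23.1% fell, with a median change of 0.74 on the log2(CPM + 1) scale against 0.17 for all tested genes, and 7 rose and 3 fell after quantile normalization. Aldh1a1, which oxidizes retinal to retinoic acid, stood at 0.918 and 0.896 CPM in D2, 4.19 and 5.24 in D4, 16.5 and 19.9 in D6, and 24.7 and 24.1 in D8 (3.73 ± 0.12, limma adjusted p = 1.15e-11). With both D2 libraries under 1 CPM, it passed the filter through later days only. Its days did not overlap, and their order was that of Fmo1. Crabp1, which binds retinoic acid in the cytosol, rose from 19.7 ± 1.81 CPM in D2 to 118 ± 12.3 in D4 and stood at 103 ± 6.55 in D8. Rdh10, which makes retinal, fell from 71.6 ± 1.30 to 32.1 ± 0.285 CPM between D2 and D8.

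Of 14 tested enzyme genes of eicosanoids, another class of oxygenated lipids, 9 rose and 2 fell in D8 against D2 (47.3% and 23.1% of all tested genes), but 5 rose and 5 fell after quantile normalization. Ptgs2, the inducible prostaglandin synthase, stood at 229.8 and 232 CPM in D2, 69.2 and 66.6 in D4, 26.8 and 31.3 in D6, and 26.1 and 27.9 in D8 (-3.05 ± 0.07, limma adjusted p = 6.74e-13). Hpgd, which inactivates prostaglandins, rose from 0.770 ± 0.103 CPM in D2 to 19.2 ± 0.113 in D8, and it rose in each step. Tbxas1, thromboxane synthase and itself a P450 by structure, rose from 1.31 ± 0.373 to 14.0 ± 0.924 CPM.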
